A study of Mus musculus with 2 samples.

Results

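The regions described here are peaks of trimethylated lysine 4 of histone H3 (H3K4me3) that lie at the 3' ends of genes. A peak was taken when its nearest edge lay within 1000 bp of the 3' end of a protein-coding gene and more than 2000 bp from the annotated 5' end of every gene of any biotype. Of the 37550 peaks that the authors called replicated on chromosomes 1 to 19, X and Y, 517 met this rule. They lay at the 3' ends of 460 genes, which is 2.47% of the 18644 protein-coding genes that could have had such a peak (95% Wilson interval 2.25% to 2.70%), called eligible genes below. A gene was eligible when at least 1 base within 1000 bp of its 3' end lay more than 2000 bp from every 5' end. The series has 1 group of 2 biological replicates of MEL cells, an immortalized mouse erythroleukaemia line. Both were treated with 2% dimethyl sulfoxide (DMSO) for 5 days before chromatin immunoprecipitation and sequencing. Being a transformed line, MEL cells model red cell precursors only in part. Untreated cells were not analysed here, so nothing below is a response to DMSO, and no test between conditions was possible.

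H3K4me3 is deposited by the SET1 and MLL complexes, whose CXXC-domain subunits bind unmethylated CpG dinucleotides, and it is best known as a sharp mark around the start sites of active and poised genes. It is usually low along the body of a transcribed gene, where H3K36me3 is found, and at the 3' end, where the transcript is cleaved and polyadenylated. A peak at a 3' end can therefore be set beside the mark at the same gene's 5' end, the length of the gene and the mark of the genes next to it.

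The DNA under such peaks is shown first, because its median content of CpG dinucleotides, given below, stood between that of promoters and that of other distal peaks. Sequence could be read only for an older peak set of this series on the build NCBIM37 (mm9), whose values are on another scale and are not compared with those below. Each run is the 150 bases around the summit of an older peak that lay beyond the 3' end, outside every GENCODE M1 gene, read 5' to 3' on the strand of the gene with CpG in capitals. The first 3 genes had no replicated peak within 1000 bp of their 5' end (an unmarked 5' end), and the other 3 had one (a marked 5' end). They are the 3 genes of each kind with the highest 3' value among those searched whose peak lay beyond the 3' end on both builds. Runs of fewer than 150 bases were left out, and not every chromosome was searched.
Sfn, chr4:133155394-133155543, minus strand: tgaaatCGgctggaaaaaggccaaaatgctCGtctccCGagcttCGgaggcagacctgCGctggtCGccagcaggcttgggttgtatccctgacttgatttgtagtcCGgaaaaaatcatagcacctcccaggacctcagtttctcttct
Slc11a1, chr1:74433629-74433778, plus strand: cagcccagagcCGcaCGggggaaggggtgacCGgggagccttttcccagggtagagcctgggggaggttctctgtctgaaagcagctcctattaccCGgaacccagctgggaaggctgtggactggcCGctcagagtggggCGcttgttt
Fhl3, chr4:124386140-124386289, plus strand: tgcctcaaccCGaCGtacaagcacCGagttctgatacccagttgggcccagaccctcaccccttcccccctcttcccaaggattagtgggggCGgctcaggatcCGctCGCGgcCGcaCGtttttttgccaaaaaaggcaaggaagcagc
Sertad1, chr7:28276042-28276191, plus strand: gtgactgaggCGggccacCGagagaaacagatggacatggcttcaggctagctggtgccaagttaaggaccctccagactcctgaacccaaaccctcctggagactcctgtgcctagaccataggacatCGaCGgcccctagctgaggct
Zscan22, chr7:13495685-13495834, plus strand: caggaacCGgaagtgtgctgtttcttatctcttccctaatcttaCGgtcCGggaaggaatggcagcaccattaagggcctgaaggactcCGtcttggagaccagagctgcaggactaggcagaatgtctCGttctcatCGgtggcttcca
Kctd18, chr1:58010807-58010956, minus strand: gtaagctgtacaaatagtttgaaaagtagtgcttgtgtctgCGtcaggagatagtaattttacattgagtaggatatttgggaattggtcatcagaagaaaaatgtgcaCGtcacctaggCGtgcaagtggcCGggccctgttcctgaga

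These runs held 7 CpG (Sfn), 6 (Slc11a1), 9 (Fhl3), 4 (Sertad1), 6 (Zscan22) and 4 (Kctd18). They are summit runs outside genes and need not be typical of the medians below. Those medians are over whole peaks with a median width of 1204 bp, of which 40 of 150 lay outside every gene. The replicated peaks at these 3' ends on mm10 had values in replicates 1 and 2 of 9.84 and 15.1 at Sfn, 10.1 and 12.9 at Slc11a1, a metal ion transporter of phagocytes, and 7.55 and 9.46 at Fhl3, a LIM-domain protein. They were 7.13 and 16.2 at Sertad1, 10.6 and 12.3 at Zscan22 and 10.3 and 9.12 at Kctd18. For contrast, the 150 bases just before the start of the first gene of each kind are given from the RefSeq promoter table (GRCm38.p6), again with CpG in capitals.
Sfn, chr4:133602169-133602318, minus strand: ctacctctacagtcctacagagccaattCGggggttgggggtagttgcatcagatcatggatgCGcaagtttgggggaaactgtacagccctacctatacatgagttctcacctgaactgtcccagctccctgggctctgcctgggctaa
Sertad1, chr7:27486803-27486952, plus strand: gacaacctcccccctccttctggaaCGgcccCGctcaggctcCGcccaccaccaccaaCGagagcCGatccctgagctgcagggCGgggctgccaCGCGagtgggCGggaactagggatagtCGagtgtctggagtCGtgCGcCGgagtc
The unmarked start of Sfn, which encodes the adaptor protein stratifin, held 2 CpG, fewer than the 7 of its 3' run, and the marked start of Sertad1, a regulator of cyclin-dependent kinase activity, held 13, more than the 4 of its 3' run. Across the older set, 150 peaks at 3' ends that lay more than 2000 bp from every annotated transcript start had a median of 2.09 CpG per 100 bp and a GC content of 50.1%. Peaks at 5' ends of coding genes had 4.27 CpG per 100 bp and 52.9% GC (9053 peaks). Other peaks far from starts had 1.47 CpG per 100 bp and 45.4% GC inside genes (1757 peaks), and 1.70 and 46.5% outside them (3200 peaks). The quartiles at 3' ends, 1.50 and 3.56 CpG per 100 bp, overlapped those of every other class. The median was 2.40 CpG per 100 bp where the gene's 5' end was marked in the older set (64 peaks) and 2.00 where it was not (86 peaks).

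Each deposited peak carries an enrichment value whose scale the authors do not state, and the peak sets hold no read counts, so sequencing depth is unknown. Errors are therefore the spread of the 2 replicates, or intervals that cover counting error only. Replicate 1 had 48026 peaks and replicate 2 had 46950. As a check of the cell label, 7 of 8 defining erythroid genes had a peak at the 5' end in both replicates, with Gata1 the exception at its single annotated 5' end, against 2 of 15 granulocyte and macrophage genes and 3 of 16 lymphoid genes.

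Peaks at 3' ends were found by each replicate alone in similar numbers. The same rule applied to each replicate's own set gave 643 peaks at 510 genes in replicate 1 and 667 peaks at 561 genes in replicate 2, or 2.74% and 3.01% of eligible genes. Of the 460 genes of the replicated set, 411 had such a peak in both replicates' own sets. A peak's value in a replicate is the highest value of that replicate's peaks that overlap it. By this measure 472 of the 517 peaks had a value in both replicates, 28 overlapped no peak of replicate 1 and 19 overlapped none of replicate 2. The authors derived the replicated set from both replicates, so the 411 genes and 472 peaks follow in part from how it was made. The median value was 5.03 in replicate 1, with a range of 2.01 to 25.1, and 5.71 in replicate 2, with a range of 2.04 to 21.4. Across peaks, which are not independent replicates and share their libraries, log2 values correlated between replicates with a Pearson r of 0.782, and ranks with a Spearman rho of 0.781. The median log2 ratio (replicate 1 over 2) was -0.12 with an SD of 0.48, and 28 peaks (5.93%) differed by more than 2-fold.

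**Figure D1:**
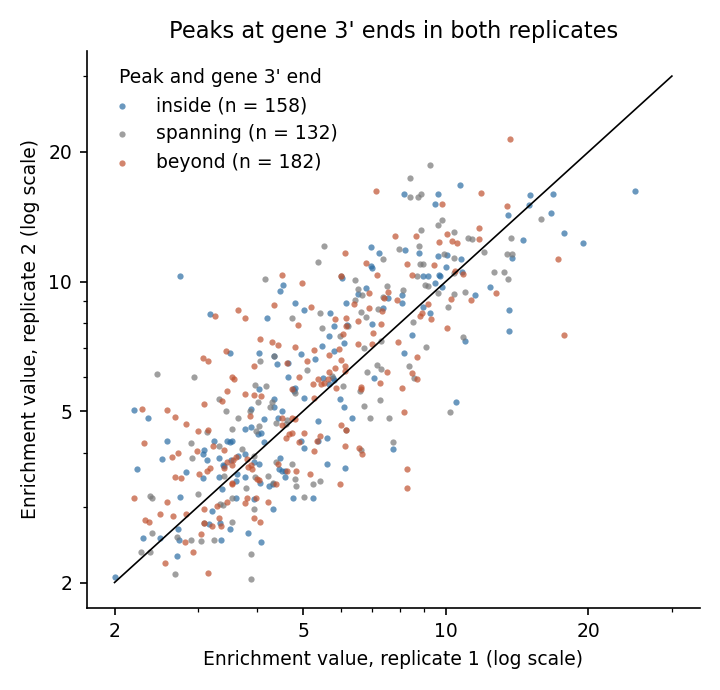
Enrichment value of each 3'-end peak in replicate 1 (x axis, log scale) against replicate 2 (y axis, log scale), for the 472 peaks with a value in both. Colours give the place of the peak relative to the nearest gene 3' end, and the line marks equal values. The 3 kinds of place lie over one another, and 28 points are more than 2-fold from the line.

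The peaks fell on both sides of the 3' end. Relative to the nearest 3' end, 175 lay inside the gene, 137 spanned the end and 205 lay wholly beyond it. Spanning peaks were the widest, with a median of 730 bp against 503 bp inside and 425 bp beyond, and a wider peak is more likely to reach a given base. Their median value over the replicates was 6.15, against 5.37 inside and 5.33 beyond. The peaks clustered: 367 genes had 1 peak, 86 had 2 and 7 had 3. With gaps of up to 1000 bp closed, the 517 peaks fell into 423 runs, 260 peaks stood alone and 42 were in a run that reached a 5' end. The 3' ends of 2 or more genes were shared by 43 peaks, and 37 lay over the span of another coding gene.

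The highest peak lay inside Sectm1a (gene ID 209588), 733 bp short of its 3' end, at chr11:121068128-121069976 on mm10, where it was 1849 bp wide. Its value was 25.1 in replicate 1 and 16.2 in replicate 2, or 20.7 ± 6.30 on average (errors from here on are SDs over n = 2 replicates). No peak lay at the 5' end of Sectm1a or at that of the next gene, Sectm1b. The peak 804 bp beyond Actrt3, which encodes an actin-related protein, reached 13.7 and 21.4 (chr3:30594803-30596269). Actrt3 was also marked at its 5' end, with 16.4 and 9.83, so the order of its ends differed between the replicates. Zp3r, which encodes a sperm acrosomal protein, had a peak of 16.6 and 14.5 573 bp inside its 3' end (chr1:130547683-130549595). It lay 32635 bp from the nearest annotated 5' end on mm10. In GENCODE M1 on mm9 a transcript start lay 18963 bp from the 3' end of Zp3r. Mlana, the melanocyte antigen melan-A, had a peak of 15.9 and 14.0 spanning its 3' end (chr19:29707589-29709228) and none at its 5' end, which lay 10048 bp away. Of these 4 genes, 3 were unmarked at the 5' end.

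For 3 of the 12 highest peaks the label of a 3' end rests on the annotation. The GRCm38 gene table gives 1 start per gene, and the RefSeq promoter table lists further starts. A further start lay under the peak within Hoxc4, a homeobox gene (16.8 and 15.9, chr15:103033932-103036420), and under that within Gm46933 (17.8 and 13.0, chr5:92082398-92083741). The peak of Fth1, which encodes the heavy chain of ferritin (19.5 and 12.3, chr19:9982725-9984428), lay 79 bp from a further start of Fth1 itself and 744 bp beyond the 3' end of Best1, a chloride channel gene that ends 60 bp from Fth1. Of all 517 peaks, 21 lay within 2000 bp of a further RefSeq start. With those starts barred as well, 496 peaks remained, at 2.36% of eligible genes.

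The other peaks among the 12 highest were at Ankrd35 (15.1 and 15.9), Bnip5 (15.0 and 15.1), Ier5l (17.2 and 11.3), Sp9 (13.4 and 15.0) and Vgf (9.26 and 18.7). Sp9 encodes a zinc finger transcription factor of neural development and Vgf a neuropeptide precursor. The replicates agreed within 0.07 (SD) at Bnip5 and differed by more than 2-fold at Vgf. At Ankrd35 and Vgf the 5' end was marked as well, at 9.55 ± 2.54 and 7.31 ± 2.10, both below the 3' means of 15.5 ± 0.57 and 14.0 ± 6.65. Only at Ankrd35 was the gap between the ends larger than both SDs added.

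The widest peak, 3788 bp, spanned the 3' end of Magi2 (chr5:20701612-20705399), which encodes a synaptic scaffold protein and is 1485406 bp long, the longest gene of the 460. It had 13.3 and 10.5, and the gene's 5' end was unmarked. Hif1a, the oxygen-regulated subunit of HIF-1, had a peak of 2876 bp across its 3' end (chr12:73947450-73950325) with 13.7 and 12.6, above the 7.94 and 8.71 of its marked 5' end in both replicates. That peak also lay 2114 bp from the nearest 5' end of another gene, close to the limit of the rule. A peak of 2656 bp covered the meeting 3' ends of Hrc and Ppfia3, whose genes end 152 bp apart (8.73 and 15.7). A peak of 2533 bp lay beyond Cd248 (11.8 and 16.0). Cd248, which encodes endosialin, was also among the 5 highest peaks that lay wholly beyond the 3' end and in no other coding gene, with Actrt3, Ier5l, Sp9 and Fbxw2. The Fbxw2 peak had 17.8 and 7.50 and thus rested mainly on replicate 1. It lay in a run that reached a 5' end.

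In width and value the 3'-end peaks were like other peaks away from 5' ends. In the replicates' own sets their median width was 334 ± 4.24 bp and their median value 4.20 ± 0.08. Peaks at 5' ends of coding genes had 982.5 ± 114 bp and 10.6 ± 1.19, far outside the spread of the replicates. Other peaks far from 5' ends had 303.5 ± 17.7 bp and 4.00 ± 0.05 inside genes and 298.5 ± 17.7 bp and 4.19 ± 0.03 outside them. Thus in these sets 3'-end peaks were wider and higher than other peaks inside genes in both replicates, by a small margin. They were as high as peaks outside genes within the replicate spread. In the replicated set their median value was 5.17, above the 4.64 of other peaks inside genes and the 4.75 of those outside. At 5' ends it was 11.2 there. The share that overlapped a peak of the other replicate was 78.8% ± 1.83 at 3' ends, 96.4% ± 2.16 at 5' ends, 73.9% ± 2.00 inside genes and 75.3% ± 1.80 outside.

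Peak coverage was not raised at 3' ends. Over all coding genes, counting only bases more than 2000 bp from every 5' end, replicated peaks covered 1.02% of the last 1 kb inside the gene and 0.900% of the first 1 kb beyond it. Coverage was 0.963% from 5 to 1 kb inside and 1.06% from 10 to 5 kb inside. Beyond the end it was 1.17% from 1 to 5 kb and 1.33% from 5 to 10 kb, higher than at the end itself. In replicate 1 the first 1 kb beyond and the stretch from 5 to 10 kb beyond had 0.852% and 1.24%, and in replicate 2 they had 0.893% and 1.31%, so the order held in each.

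The profiles of genes with a marked and an unmarked 5' end parted widely only from 1 kb beyond the 3' end. Inside the gene the profiles ran together, at 1.01% for genes with a marked 5' end and 0.913% for the others from 5 to 1 kb before the end. In the last 1 kb inside they had 1.08% and 0.962%, and in the first 1 kb beyond the end 1.02% and 0.778%. From 1 to 5 kb beyond it they had 1.77% and 0.674%, and from 5 to 10 kb beyond 2.06% and 0.693%. The bases counted from 5 to 1 kb inside and from 1 to 5 kb beyond were 34.0 and 32.4 Mb for marked genes. For unmarked genes they were 29.7 and 39.0 Mb. Genes are thus not weighed alike on the 2 sides, and what this adds to the split was not tested. Splitting genes by the next coding gene beyond the 3' end gave a difference at every distance instead. Where that neighbour's 5' end was marked, coverage was 1.42% in the last 1 kb of the gene, against 0.645% where it was not. From 10 to 5 kb inside, the values were 1.31% and 0.824%.

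**Figure D2:**
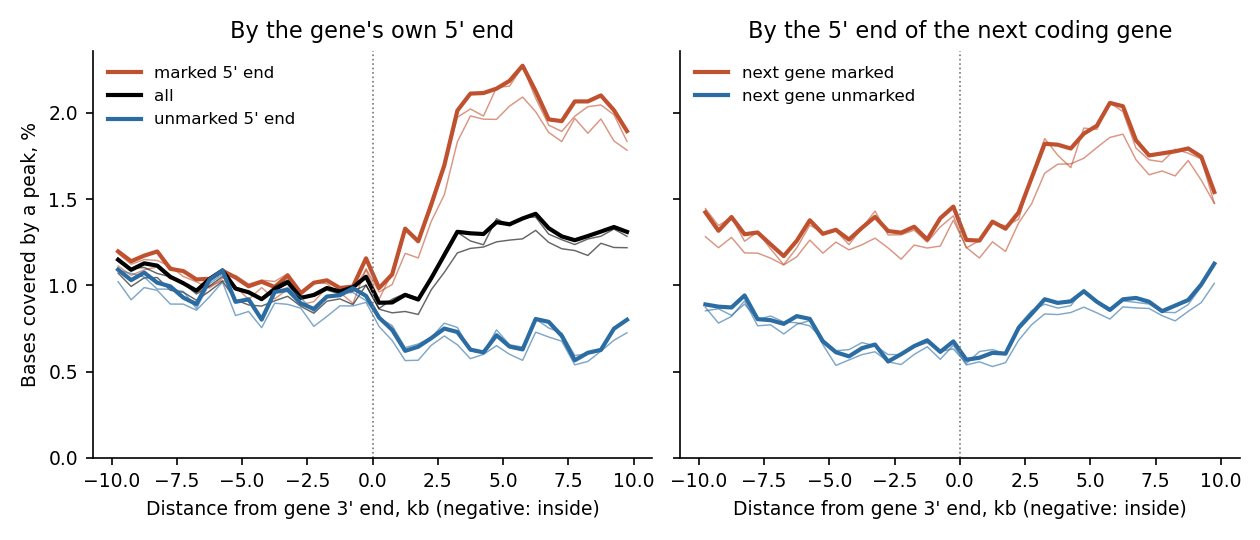
Percentage of bases covered by a peak (y axis) in 500 bp bins from 10 kb inside to 10 kb beyond gene 3' ends (x axis, kb), counting only bases more than 2000 bp from every 5' end. Thick lines are the replicated set and thin lines each replicate. On the left, genes with a marked and an unmarked 5' end run close together inside the gene and separate beyond the dotted 3' end. On the right, genes with a marked neighbour lie above the others throughout.

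A gene's own 5' mark did not set the genes with a 3'-end peak apart. Of the 460 genes, 235 (51.1%, 46.5% to 55.6%) had a marked 5' end, against 49.8% of eligible genes without a 3'-end peak and a background of 49.9% of all eligible genes. Seen the other way, 2.53% of eligible genes with a marked 5' end and 2.41% of those with an unmarked one had a 3'-end peak. The replicates' own sets gave 53.3% against 49.7% in replicate 1 and 52.6% against 50.4% in replicate 2. The direction of this small difference depended on the rule: with 5000 bp barred around 5' ends it was 44.9% against 50.7%, and without the peaks whose run reached a 5' end it was 47.3% against 49.9%. So 225 genes had the mark at the 3' end and none at the annotated 5' end.

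Where both ends were marked, the 5' end was usually the higher. In the 208 such genes with values in both replicates, the median was 11.7 at the 5' end and 5.77 at the 3' end. The 5' end was higher in both replicates in 158 genes, the 3' end was higher in both in 27, and in the remainder the replicates disagreed. Across these genes the Spearman correlation of the ends was -0.205, a description over genes that share the same 2 libraries. At the 5' end these genes had 10.2 and 12.6 (medians in replicates 1 and 2), against 12.5 and 13.8 in the 8995 other marked eligible genes with values in both. Their 5' medians were thus lower in each replicate, a difference that was not tested. The 3' peaks of unmarked genes had medians of 5.72 and 6.36, and those of marked genes 5.27 and 5.63, which was lower in each replicate and was not tested either.

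**Figure D3:**
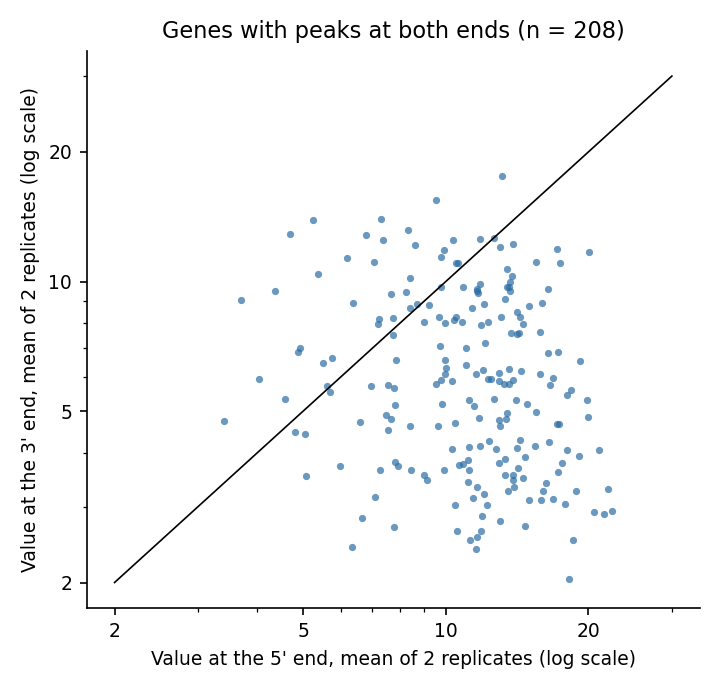
Mean enrichment value of 2 replicates at the 5' end (x axis, log scale) and at the 3' end (y axis, log scale) of the 208 genes with peaks at both ends in both replicates. The line marks equal values. Most genes lie below it, with a median of 11.7 at the 5' end and 5.77 at the 3' end.

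Genes with a 3'-end peak were shorter than other eligible genes. Their median length was 14.9 kb (quartiles 6.49 and 34.4 kb), against 20.8 kb (8.08 and 51.1 kb). The replicates' own sets gave 14.6 against 20.9 kb and 14.7 against 20.9 kb. By length class, 2.77% of eligible genes under 5 kb had a 3'-end peak (82 of 2963), 3.16% from 5 to 20 kb (196 of 6205), 2.11% from 20 to 50 kb, 1.92% from 50 to 100 kb and 1.54% over 100 kb (36 of 2331). The intervals of the 5 to 20 kb class (2.75% to 3.62%) and of the class over 100 kb (1.12% to 2.13%) did not overlap.

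The length difference was larger among genes with a marked 5' end, whose medians were 14.0 kb with a 3'-end peak and 23.2 kb without. Among unmarked genes the medians were 15.7 and 17.9 kb. The widest gap lay in the shortest genes: under 5 kb, 4.88% of marked genes had a 3'-end peak (48 of 984, 3.70% to 6.41%) against 1.72% of unmarked genes (34 of 1979, 1.23% to 2.39%). In replicate 1 these shares were 6.90% and 1.72%, and in replicate 2 they were 6.01% and 2.09%. In the other length classes the intervals of marked and unmarked genes overlapped, with 1.65% against 2.75% from 20 to 50 kb the next largest gap and in the other direction. In genes under 5 kb both ends lie within 5 kb of each other, so the 3'-end peak of such a gene is never far from its own 5' end, and what part that nearness has in the share was not tested.

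**Figure D4:**
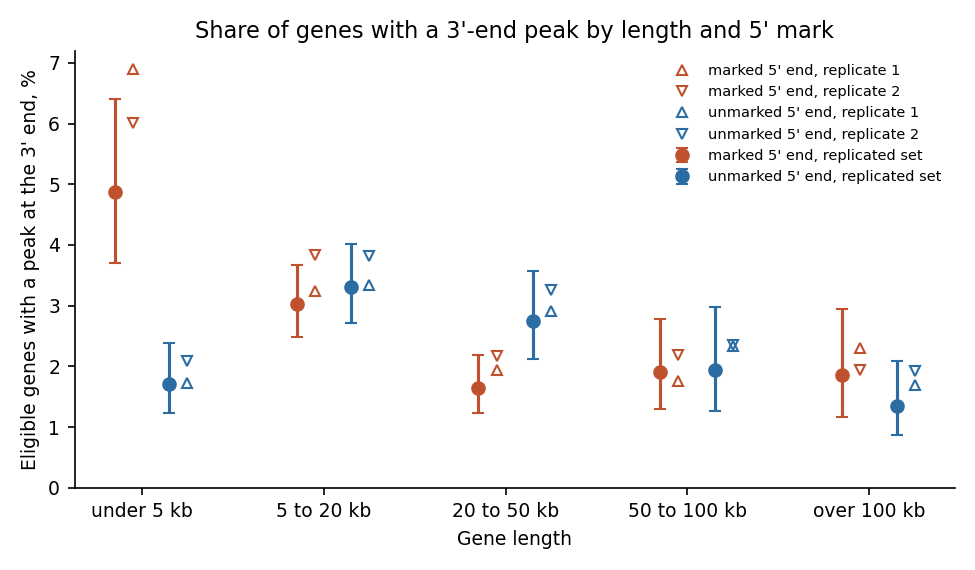
Percentage of eligible genes with a 3'-end peak (y axis) by gene length class (x axis), for genes with a marked (red) and an unmarked (blue) 5' end. Filled circles are the replicated set with 95% Wilson intervals and open triangles each replicate's own set. Marked genes under 5 kb stand above unmarked ones, at 4.88% against 1.72%, and the intervals overlap in the other classes.

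The next gene's mark separated the genes more than their own did. The next coding gene beyond the 3' end was marked at its 5' end for 303 of the 460 genes (65.9%, 61.4% to 70.1%), against 47.3% (46.5% to 48.0%) of eligible genes without a 3'-end peak. The replicates' own sets gave 63.3% against 47.2% and 65.1% against 47.8%. The gap was present for tandem neighbours, which point the same way (63.6% against 43.8%), and for convergent ones, which run towards the 3' end and whose own 3' end is the nearer (68.6% against 51.3%). Layout itself did not differ, as 45.7% of these genes and 46.3% of the others had a convergent neighbour.

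Read as shares of eligible genes, 3.41% had a 3'-end peak where the next gene was marked and 1.61% where it was not. The highest share, 3.96% (3.35% to 4.66%), was that of genes whose own 5' end was unmarked beside a marked neighbour. It was 3.07% where both were marked, 1.75% where only the gene itself was and 1.52% (1.24% to 1.87%) where neither was. The order of marked over unmarked neighbours was kept at each distance to the neighbour's 5' end: 4.11% against 2.13% under 10 kb, 3.71% against 2.16% from 10 to 50 kb and 2.43% against 0.903% over 50 kb. Because coverage beside marked neighbours was higher 10 to 5 kb inside the gene as well, the difference was also present away from the 3' end.

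**Figure D5:**
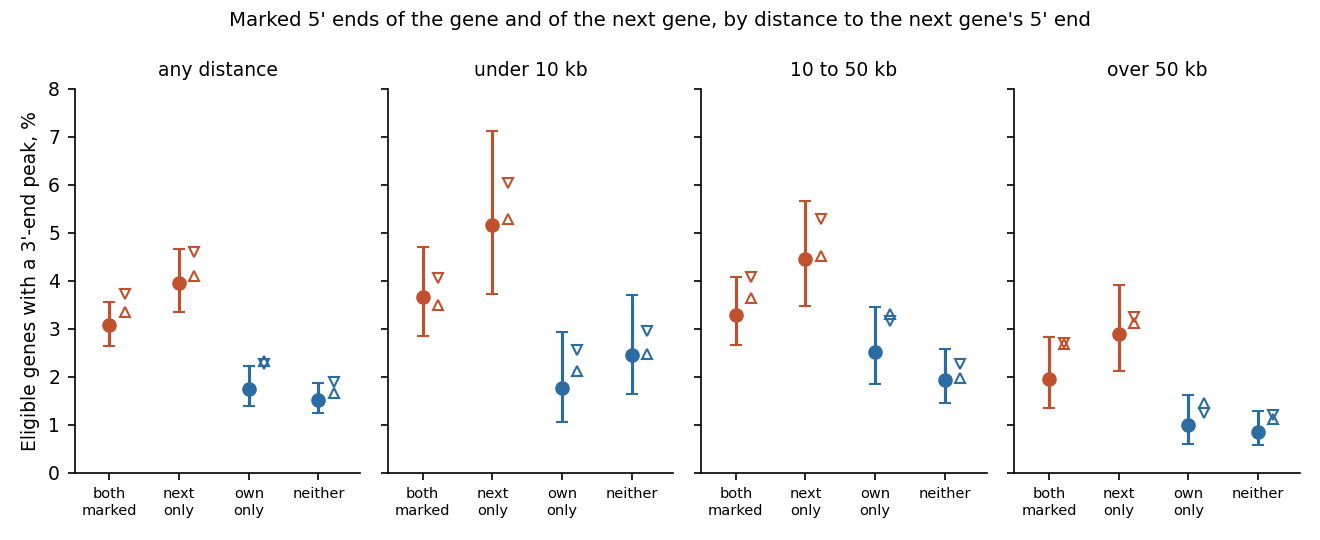
Percentage of eligible genes with a 3'-end peak (y axis) by whether the gene's own 5' end, the next coding gene's 5' end, both or neither were marked (x axis), for any distance to the next gene's 5' end and for 3 ranges of it. Circles are the replicated set with 95% Wilson intervals and open triangles each replicate's own set. Red groups, with a marked neighbour, lie above blue groups, with an unmarked one, for example at 3.96% against 1.52% for genes that are themselves unmarked.

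Genes with a 3'-end peak also had nearer neighbours. The median gap to the next coding gene was 10.7 kb, against 16.9 kb for other eligible genes, and the nearest 5' end of any gene lay 6.58 kb away, against 8.60 kb. The share with a 3'-end peak was 4.46% (123 of 2760) where the nearest 5' end lay 3 to 5 kb away, 2.90% at 5 to 10 kb, 2.51% at 10 to 20 kb, 1.62% at 20 to 50 kb and 0.595% (6 of 1008) beyond 50 kb. It was 2.27% at 2 to 3 kb, where the rule leaves less of the window open. The 3' end lay inside another coding gene for 13.7% of the genes (10.9% to 17.1%) and for 10.3% of the others (9.87% to 10.8%).

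In 4 red cell gene lists, 5 genes had a 3'-end peak, and none of those peaks was above 7.16 in either replicate. None of 5 eligible globin genes had one, a count that allows up to 43.4% by the Wilson interval. Of 17 erythroid transcription factor genes, 2 (11.8%, 3.29% to 34.3%) did. Mafk, a small Maf partner of NF-E2, had 6.53 and 7.16 beyond its 3' end against 16.1 and 18.3 at the 5' end. Lyl1, a basic helix-loop-helix factor, had 6.74 and 5.14 across its 3' end against 13.0 and 11.6. Of 22 red cell membrane and carbonic anhydrase genes, 1 (4.55%, 0.807% to 21.8%) did: Add3, which encodes gamma-adducin, with 2.83 and 2.88. Of 13 late maturation genes, 2 (15.4%) did, namely Cdkn1b, a cyclin-dependent kinase inhibitor (3.24 and 2.52), and Btg2, an antiproliferative factor (2.56 and 2.22). In each of these 5 genes the 5' end was higher than the 3' end in both replicates. The 3' peaks of Lyl1 and Cdkn1b lay in runs, with gaps of up to 1000 bp closed, that reached a 5' end. Those of Mafk, Add3 and Btg2 did not. Intervals in lists this short are wide, for instance from 4.33% to 42.2% for the late maturation list, and the lists were chosen with earlier results known, so these counts are given beside the 2.47% of all eligible genes as a description.

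Peaks also stood in lists of other lineages and gene families, whose shares are read beside the same 2.47% of all eligible genes and called particular to no list. In the granulocyte and macrophage list, Prtn3, a neutrophil protease, had peaks of 4.63 and 6.46 and of 3.16 and 4.52 beyond its end. These peaks lay in a run that reached a 5' end. In the lymphoid list, Cd3d, a chain of the T cell receptor complex, had 9.05 and 9.82 across its 3' end and no mark at its 5' end. Of 31 eligible Hox genes, 2 (6.45%, 1.79% to 20.7%) had a peak, both with unmarked annotated 5' ends. They were the Hoxc4 peak described above and a peak beyond Hoxa9 (6.79 and 11.0). In GENCODE M1 on mm9 a transcript start lay 1246 bp from the 3' end of Hoxa9. Of 84 Fox, Sox, Pax and Tbx genes, 4 (4.76%, 1.87% to 11.6%) had one, led by Tbx2 (8.85 and 16.0, 5' end unmarked) and Foxh1 (6.64 and 9.32, 5' end 14.8 and 14.3). Of 375 Zfp zinc finger genes, 7 (1.87%) had one, led by Zfp94 (11.8 and 12.6), Zfp773 (9.63 and 13.6) and Zfp36 (7.40 and 9.17). The Zfp94 peak lay 607 bp from a further RefSeq start and over the span of another coding gene. The Zfp36 peak lay in a run that reached a 5' end. Of 54 eligible ribosomal protein genes, of which 52 were marked at the 5' end, 1 (1.85%) had one, Rpl36 (8.72 and 10.3 across its end). Rpl36 ends 50 bp from Lonp1. Of 5 eligible histone genes H2bc6 had a peak (13.6 and 8.60) 344 bp from a further start.

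At both limits of the rule the peaks just inside were wider than those just outside, while the median values were nearer to each other. The 186 peaks that lay 501 to 1000 bp from a 3' end had a median value of 5.33 and a median width of 480.5 bp, and the 189 peaks at 1001 to 1500 bp, just outside, had 4.84 and 401 bp. The 46 peaks 2001 to 2500 bp from a 5' end had 5.86 and 592 bp, and the 45 at 1501 to 2000 bp, excluded, had 6.23 and 416 bp. At this limit the replicates differed in direction. Inside and outside it the medians were 4.76 and 5.38 in replicate 1 and 6.49 and 5.77 in replicate 2.

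The older set on mm9, read with the GENCODE M1 annotation of that build, was smaller and held fewer peaks at 3' ends. The same rule found 195 of its 15810 peaks there (1.23%, 1.07% to 1.42%), beside 517 of 37550 in the replicated set on mm10. Of the 195, 45 (23.1%, 17.7% to 29.5%) lay within 2000 bp of a further transcript start. Of the other 150, 103 overlapped an untranslated region and 55 coding sequence, while 40 lay outside every gene. A looser lookup by symbol set no bar on 5' ends, so an older peak near a start could count. In it, 172 of 401 genes with a 3'-end peak on mm10 (42.9%) had an older peak within 1000 bp of the 3' end. Of other eligible genes, 2.90% had one. Among the 100 matched genes of highest value, 86 had one. The sources used here do not say whether the older set came from the same libraries, so this is no independent check. In M1, a transcript start lay within 2000 bp of the 3' end for 18.7% (15.2% to 22.8%) of the matched genes and for 16.9% (16.3% to 17.4%) of the others.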

How the data were processed

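H3K4me3 ChIP-seq peaks of 2 biological replicates of 1 group (fragments of 150 to 350 bp) were used. Per the file headers and deposited notes, the authors called 1 set per replicate, 1 pooled and 1 replicated set on mm10. Aligner, caller and thresholds are not given in the sources used here. Beside each peak the authors deposited a signal (enrichment) value, of unstated scale, and its q-value as −log10. No counts were used, so depth is unknown.

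Gene spans came from a RefSeq table of GRCm38.p6 (1 start and end per gene, no exons). Strand came from RefSeq tables for 17492 coding genes and from GENCODE M1 by symbol or synonym for 3649 and 394. The 352 without strand had no 3' end, and genes of any biotype without strand barred both ends. Both strand sources gave the same strand for 16604 of 16648 genes. A 5' end was marked when a peak overlapped it ± 1000 bp. Shares have 95% Wilson intervals (scipy 1.17.1), which cover counting error only. No test was run, because there is 1 group. The check of CpG content at RefSeq promoters is void, since under 80% of genes matched, and is left out.

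The members and lists were chosen with earlier results of these data known. Named are the 12 highest peaks, the 5 widest, the 5 highest with an unmarked 5' end, the 5 highest wholly beyond the 3' end outside other coding genes, every red cell list gene with a peak, and up to 3 genes of other lists; 2 genes so chosen and 1 list are not reported here. The genes with printed sequences and those of the closing section were chosen after their values were seen. Alternatives changed both distances, biotypes, strand, q, summits, peak sets, the 5' window and eligibility, and left out each replicate.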

Additional observations from a re-analysis of the deposited data

How the results depend on the processing

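Sets of 1 replicate were read by the same rule when the other was left out. The number of 3'-end peaks stayed within 1.5 times of 517 under 13 of 17 alternatives. It was 331 with a 3' distance of 500 bp and 901 with 2000 bp, 306 with 5000 bp barred around 5' ends and 150 in the older mm9 set with all transcript starts barred. For 10 alternatives the share of eligible genes moved from 2.47% by more than the replicate SD, to 1.75%, 3.70%, 1.93% and 0.840% under the same 4, to 2.13% with a −log10 q of at least 5, 1.97% by summit, 2.90% in the pooled set, 2.27% without peaks whose run reached a 5' end (added after seeing the data) and 2.74% to 3.01% without 1 replicate.

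The share of genes with a marked 5' end (51.1%) was 52.7% at 2000 bp from the 3' end, 52.6% and 44.9% with 1000 and 5000 bp barred, 51.7% with coding 5' ends barred alone, 50.3% and 50.1% at −log10 q of 2 and 5, 53.0% by summit, 53.6% pooled, 53.7% and 47.6% with 5' windows of 2000 and 500 bp, 42.7% on mm9 and 52.6% to 53.3% without 1 replicate. Added after seeing the data, it was 51.8% with further RefSeq starts barred, 50.2% for peaks in both replicates and 47.3% without runs that reached a 5' end. Genes without a 3'-end peak had 47.3% to 51.5% over the mm10 alternatives, so the sign of this difference was not stable.

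In the same order the median length (14.9 kb) was 14.7 and 14.2 kb at 500 and 2000 bp, 12.2 and 20.6 kb with 1000 and 5000 bp barred, 14.6 kb with coding 5' ends barred alone, 14.9 kb with strandless genes barring nothing, 14.8 and 14.6 kb by q, 14.0 kb by summit, 14.4 kb pooled, 16.7 kb on mm9, 15.0 kb with further starts barred, 15.7 kb without such runs and 14.6 to 14.7 kb without 1 replicate. It was below that of the other genes in each of these mm10 settings, for instance 20.6 against 26.5 kb with 5000 bp barred. The share with a marked next gene (65.9%) was 64.2% with 5000 bp barred and 63.3% to 65.1% without 1 replicate, and stayed above that of the other genes in every mm10 setting. Without 1 replicate the median value was 5.03 to 5.71, coverage within 1 kb of the 3' end 0.898% to 0.938% (0.960% in the replicated set) and the median width 331 to 337 bp, against 514 bp in the replicated set. The causes were not tested. Depth is unknown, so the number of weaker 3'-end peaks below detection cannot be given. No paired analysis was possible because there is 1 group.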

Other observations

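Of the 460 genes, 86 had 2 peaks at the 3' end and 7 had 3. Iqcj had 3, with 13.6 and 10.1 (replicates 1 and 2) across the end and 12.4 and 9.71 and 4.46 and 3.89 inside it, and its 5' end was unmarked. The shortest gene with a 3'-end peak was Gpx1, which encodes a glutathione peroxidase and is 1263 bp long. Its peak lay 950 bp beyond the end.

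With 1 start per gene, 1008 of the 18644 eligible genes had a 3' end more than 50 kb from every 5' end. Peaks that far from every 5' end numbered 6 of 517. Among them were those beyond Dab2ip, which encodes a Ras GTPase-activating protein (6.40 and 8.86, 86665 bp from the nearest 5' end), and beyond Elf4, an ETS-family transcription factor (4.81 and 7.04, 52807 bp). In GENCODE M1 on mm9, which lists more starts per gene, a transcript start lay 20667 bp from the 3' end of Dab2ip and 41778 bp from that of Elf4, so these distances depend on the annotation. Both next genes were marked at the 5' end.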
